A study of Xenopus tropicalis with 4 samples.

Results

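Voltage-gated and TRP ion channel genes were followed in polyadenylation-site reads from the whole bodies of adult Xenopus tropicalis, a diploid clawed frog. A gene was taken as a member when its symbol began with kcn, cacn or clcn, with scn or hcn and a digit, or with trpc, trpm or trpv and a digit. This gave 97 of the 15410 genes named in the table, with 251 of its 66426 sites, and 3 further sites on the strand opposite to a channel gene's exon were left out of all sums. Of the 97, 95 had at least 1 site outside that class, while kcnc1 and kcnk2 had opposite-strand sites only. One symbol, trpc4ap, fits the naming rule but encodes a protein that binds a TRPC channel. It has a family of its own below and is included in all totals.

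The study made WTTS-seq libraries (whole transcriptome termini site sequencing, which reads the 3′ ends of polyadenylated RNA) from 2 adult male frogs and 2 adult female frogs, each library being the homogenized whole body of 1 animal. No treatment, allele or strain is named in the labels, and the series title asks how alternative polyadenylation sites differ between the sexes. Males 1 and 2 gave 2779715 and 1531471 reads over all sites, and females 1 and 2 gave 2380500 and 1778737. Of these, 3201 and 1013 reads in males and 2796 and 2020 reads in females fell to channel genes.

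Ion channels are membrane proteins that let sodium, potassium, calcium or chloride ions pass when they open. Voltage-gated sodium and calcium channels start and carry the electrical signals of nerve, skeletal muscle and heart. Potassium channels return the membrane to rest or hold it there, CLC proteins carry chloride across the cell surface or the walls of lysosomes and endosomes, and TRP channels open to heat, stretch, lipids or chemical ligands. Most of these channels are built from a pore subunit and accessory subunits that bring it to the membrane and tune its opening. The RNA of a channel can also end early, at a polyadenylation site inside an intron, and such an end leaves out the exons behind it.

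Channel genes were read shallowly. The median channel gene had 36 reads over all 4 frogs, against 91 for the other genes, and 37 channel genes had under 20 reads. The text therefore gives raw reads per frog first, and then levels as CPM (counts per 1000000 reads of a library after TMM scaling, a scaling that sets the bulk of genes equal between libraries). Each gene was read at its 3′ ends, so a level is not divided by length, and levels are compared between frogs rather than between genes.

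Of the 95 channel genes with reads, 42 had enough to be tested between the sexes. With edgeR's quasi-likelihood test at a Benjamini-Hochberg adjusted p under 0.05 over all genes, 14 were higher in males, 6 were higher in females, and 22 did not pass. Over all 10257 genes tested, 16.8% passed as higher in males and 19.1% as higher in females. Both males lay above both females in 24 of the 42 tested channel genes, a placing that 32.1% of all tested genes had. Both females lay above both males in 11, against 42.4% of all tested genes, and the sexes overlapped in 7. The median fitted log2 fold change, males over females, was 2.22 over the 42 tested channel genes and -0.33 over all tested genes. A gene with reads in 1 sex enters the test through that sex, so these counts and medians describe the genes deep enough to test. For cacnb3, kcnk13, kcnj5 and kcnt2, called with no reads in 1 sex, only 1 direction was possible. The filter on low counts was also passed only through the higher sex in scn1a, cacng2, kcnma1, kcne1 and kcnk7. The same held for kcnq5, cacna2d1, clcn2, scn4a and kcna7. In these genes the called direction was favoured by the filter. In whole-body RNA, fewer cells of a type and less RNA per cell cannot be told apart.

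These directions depended on how the libraries were scaled. Scaled by library size alone, the median of all genes moved to -1.23 and 13 channel genes were higher in males and 9 in females. The sexes were then set equal on the median of 47 tested marker genes of muscle, heart, nerve, glia and epithelium. The median of all genes moved to -4.10, and 2 channel genes, scn1a and cacnb3, were higher in males and 15 in females. Single tissues were not set equal by this. Under TMM the median log2 fold change was 3.78 over the 47 genes, 4.46 over neuron markers and 1.88 over markers of epithelium and kidney. The share of called genes that were higher in males was 46.8% over all genes under TMM, 24.0% under library size alone and 0.72% with the marker genes set equal. Folds below are on the TMM scale. No channel gene called on that scale changed sign under library size alone, and with the marker genes set equal only cacnb1 (-0.24) and kcna7 (-0.82) did.

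Marker genes of the tissues moved with the sexes as well. Of 18 tested oocyte markers, all 18 were higher in females, with summed levels of 29.8 and 29.9 CPM in males and 5009 and 4801 CPM in females, and 13 of the 20 in the table, such as zp2, mos and ccnb1, had no male reads. Of 19 tested skeletal muscle markers, 18 were higher in males, with sums of 191590 and 100060 CPM in males and 12802 and 6009 CPM in females, and none was without reads. Of 7 tested heart markers, 6 were higher in males, with sums of 1392 and 1383 CPM in males and 65.9 and 170 CPM in females. Of 10 tested neuron markers, 9 were higher in males and uchl1 was higher in females. Their sums were 1413 and 1079 CPM in males and 366 and 364 CPM in females. Of these sums uchl1 alone made 15.5 and 16.8 CPM in males and 300 and 347 CPM in females. No female reads were found in rbfox3, syp and syt1. Of 4 tested glia markers, 3 were higher in males, with sums of 72.7 and 124 CPM in males and 10.8 and 23.8 CPM in females. Of 7 tested markers of epithelium and kidney, 3 were higher in males and 2 in females, and the salt transporter gene slc12a3 had no male reads while slc12a1 had no female reads. The part of these tissues in the channel results was not tested. With 2 sexes compared, any called gene shares its direction with the markers called in the same sex. A shared direction is therefore no test of tissue.

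**Figure D1:**
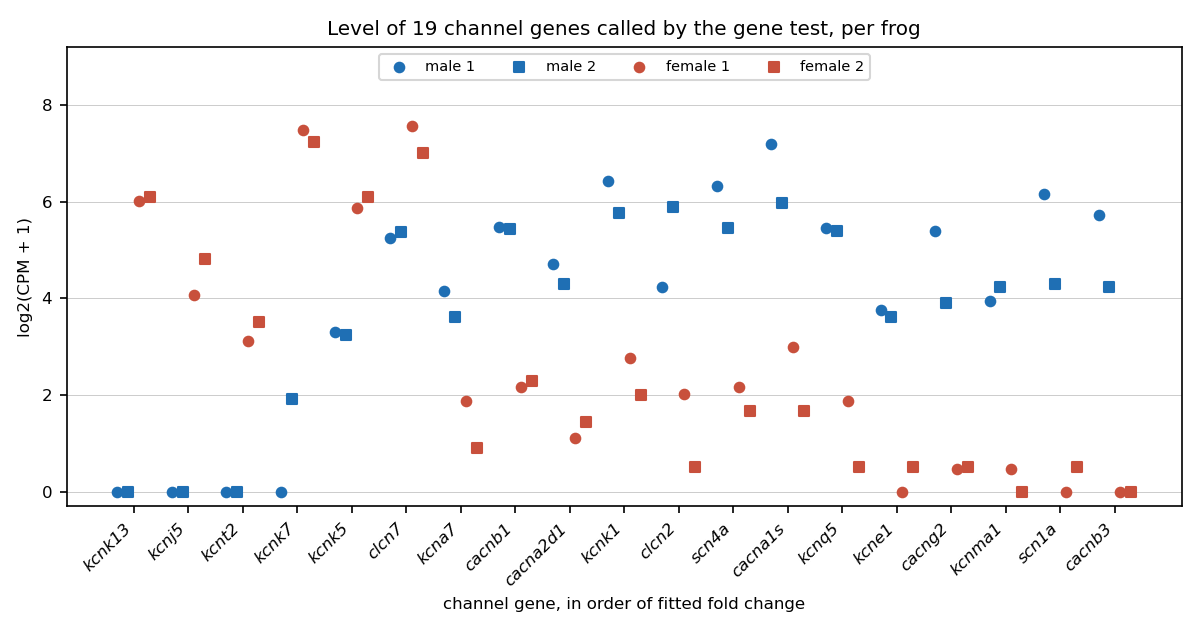
Level of 19 channel genes that passed the gene test, as log2(CPM + 1) on the vertical axis, with 1 point per frog (males blue, females red; circles frog 1, squares frog 2) and genes ordered from the lowest to the highest fitted fold change, males over females. The 6 genes on the left have both females above both males, and the 13 on the right have both males above both females.

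The pore subunits of voltage-gated calcium channels numbered 8, of which 3 were tested and 1 was higher in males. That gene was cacna1s, the calcium channel of the skeletal muscle membrane that senses voltage for contraction. It had 245 and 66 reads in males and 18 and 5 in females. Both males were far above both females, with male 1 the highest. The skeletal muscle markers were higher in the same frogs, as holds for any gene called in males. The level was 104 ± 59.7 CPM in males and 4.55 ± 3.37 CPM in females (SD, n = 2 each), a log2 fold change of 4.49 ± 0.83 (SE; edgeR adjusted p = 0.0106). Reads lay mainly at 2 exonic sites of chromosome 2, 77154309 and 77231254, which are 76945 bases apart, and both were higher in males in the test of single sites (adjusted p = 0.0197 and 0.0455). The tested genes that did not pass were cacna1a and cacna1g, which encode the pores of P/Q-type and T-type channels.

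The beta subunits sit on the inner side of the calcium channel and help carry the pore to the membrane. Of 4 members, 3 were tested and 2, cacnb3 and cacnb1, were higher in males. In cacnb3, 87 and 19 reads were found in males and 0 and 0 in females, so that levels were 51.9 and 17.7 CPM in males and 0 in both females. Against a floor of 3 reads over both females, the gene was at least 63.1-fold higher in males (adjusted p = 0.00995). All of its reads came from 1 site at position 132644996 of chromosome 2, which the table places in an intron, and the strand of the gene could not be read from its sites. The muscle subunit gene cacnb1 had 73 and 45 reads in males and 9 and 9 in females. Both males lay at nearly the same level, 42.8 ± 1.05 CPM, against 3.68 ± 0.30 CPM in females (SD, n = 2 each). Its log2 fold change was 3.52 ± 0.70 (adjusted p = 0.0125), and it fell to -0.24, with no call, with the somatic marker genes set equal. The third tested gene, cacnb2, had 35 and 0 reads in males and 15 and 22 in females, and its sexes overlapped. Of its male reads, 28 lay at an intronic site read in male 1 alone.

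The gamma subunits and their relatives numbered 4, with 3 tested and 1 higher in males. This was cacng2, known in mammals as stargazin, which escorts AMPA-type glutamate receptors to the synapse. It had 69 and 15 reads in males and 1 and 1 in females, all of them downstream of the annotated gene and within 158 bases. Both males were above both females, and the ratio was 75.0 with a counting interval of 20.1 to 629 (adjusted p = 0.0113). The member with most reads, cacng6, a gamma subunit of muscle in mammals, had 135 and 19 reads in males and 28 and 16 in females. Both males were higher, but male 2 was close to the females, and the gene did not pass (log2 2.47 ± 0.85, adjusted p = 0.0543). Under 4 of 14 alternatives cacng6 passed as higher in males. Among them were no filter on low counts, intronic sites left out, and same-numbered frogs fitted as pairs, the replicate block (edgeR adjusted p = 0.0384, 0.0447 and 0.0144). With the somatic markers set equal its fold change was -1.30.

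The alpha2delta subunits lie on the outer face of calcium channels, and cacna2d1 is the target of the drug gabapentin in mammals. Of 4 members, 2 were tested and cacna2d1 was higher in males. It had 42 and 20 reads in males and 3 and 4 in females, and both males were above both females. Levels were 21.9 ± 4.49 CPM in males and 1.44 ± 0.41 CPM in females (SD, n = 2 each), with a log2 fold change of 3.87 ± 0.90 (adjusted p = 0.0181). It did not pass when either female was left out. In this gene 97.6% and 60.0% of the reads of the males lay at intronic sites. The largest member by reads, cacna2d2, had 246 and 7 reads in males and 3 and 5 in females. Of these, 235 lay in male 1 at an intronic site on the strand opposite to the gene, and the test's filter on low counts left the gene out.

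Pore subunits of voltage-gated sodium channels, which carry the rising phase of the action potential, gave 3 tested genes of 6, and all 3 were higher in males, scn4a and scn1a among them. The skeletal muscle channel gene scn4a had 132 and 46 reads in males and 9 and 5 in females. Both males were above both females, at 60.8 ± 25.2 CPM against 2.81 ± 0.92 CPM (SD, n = 2 each), with a log2 fold change of 4.40 ± 0.75 (adjusted p = 0.00921). As for cacna1s and any other gene called in males, the skeletal muscle markers were higher in the same frogs. The site farthest along the gene, at 8742615 of chromosome 10 and downstream of the annotated end, held 104 and 41 of the male reads and all 9 and 5 female reads.

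The brain channel gene scn1a had 118 and 20 reads in males and 0 and 1 in females. Both males were higher, with a ratio of 246 and a counting interval of 43.5 to 9803 (edgeR adjusted p = 0.00953). Of 10 tested neuron markers, 9 were higher in males, a direction that any gene called in males shares. The gene scn1a was then followed across settings. It was 1 of the 2 channel genes still called higher in males with the somatic markers set equal (log2 3.91, adjusted p = 0.0394, where the 14 alternatives ran from 8.58e-06 to 0.0394). The next channel genes along chromosome 9 are scn2a, with its nearest site 241.2 kb away, and then scn3a, 130.4 kb further. These neighbours were too shallow to test. In scn2a there were 0 and 0 reads in males and 7 and 10 in females, at least a 3.17-fold difference in favour of females, while scn3a had 10 and 18 reads in males and 7 and 1 in females. The direction of the reads therefore differed between these neighbouring channel genes, on 17 reads in scn2a, and the difference was not tested.

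Of the beta subunits of sodium channels, small proteins that anchor and modulate the pore, 2 of 3 were tested and none passed.

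Voltage-gated potassium channel pores were the largest family, with 17 members, 5 tested and 2 higher in males. In kcnq5, a channel of the M-current family that holds nerve and muscle cells near rest, males had 72 and 44 reads and females 7 and 1. Levels were 42.0 ± 1.28 CPM in males and 1.56 ± 1.60 CPM in females (SD, n = 2 each), so the males agreed closely and both exceeded the females (log2 4.66 ± 0.93, adjusted p = 0.0125). All 124 reads lay at 8 intronic sites spread over 245732 bases of chromosome 5. The other call was kcna7, named here after its values were seen, a Shaker-type channel with 28 and 12 reads in males and 7 and 2 in females. It passed narrowly (log2 2.92 ± 0.96, adjusted p = 0.0476) and under 4 of 14 alternatives only. Its fold change was -0.82 with the somatic markers set equal.

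The member of that family with most reads was kcnq1, which carries the slow repolarizing current of the heart and works in epithelia. It had 62 and 8 reads in males and 203 and 122 in females, with both females above both males. The level was 22.2 ± 20.8 CPM in males and 65.5 ± 18.0 CPM in females (SD, n = 2 each), and the difference did not pass (log2 -1.53 ± 0.79, adjusted p = 0.157). Under 4 of 14 alternatives kcnq1 passed as higher in females. Among them were library size alone, the somatic markers set equal and the replicate block (edgeR adjusted p = 0.0340, 0.00102 and 0.02). In these settings, in that order, 24.0%, 0.72% and 45.8% of all called genes were higher in males. Without male 1 the log2 fold change of kcnq1 was -3.14. Of 7 tested heart markers, 6 were higher in males, unlike kcnq1. The gene of its accessory subunit, kcne1, by contrast, had 21 and 12 reads in males and 0 and 1 in females. The ratio for kcne1 was 58.9 with a counting interval of 9.87 to 2397 (adjusted p = 0.0173), and it did not pass when either female was left out. A relative, kcne5, had 53 and 10 reads in males and 407 and 24 in females. Female 1 alone held most of them, and without that frog the log2 fold change, which was negative over all 4 frogs, was 1.01.

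K2P channels pass the background potassium current that sets the resting potential, and they were the family with most calls in females. Of 9 members, 4 were tested. Of these, 3 were called higher in females and 1 higher in males. The oocyte markers were higher in females too, a direction that any gene called in females shares. The halothane-inhibited channel gene kcnk13 had 0 and 0 reads in males and 165 and 156 in females. Both females were nearly equal and both males were at 0, so kcnk13 was at least 59.9-fold higher in females (adjusted p = 0.00721). Its relative kcnk7 had 0 and 3 reads in males and 461 and 348 in females, all at 1 site of chromosome 8 that overlaps an exon (83441013). Both females were far above both males, with a ratio of 151 and a counting interval of 51.5 to 734 (adjusted p = 0.00751).

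The acid-sensitive channel gene kcnk5, which is active in kidney epithelia of mammals, was read in both sexes. It had 15 and 9 reads in males and 150 and 156 in females. Levels were 8.67 ± 0.38 CPM in males and 62.6 ± 6.87 CPM in females (SD, n = 2 each), and frogs of a sex differed little from each other (log2 -2.84 ± 0.63, adjusted p = 0.0160). The member higher in males was kcnk1, a weakly rectifying channel with 143 and 57 reads in males and 15 and 7 in females. Its level was 69.2 ± 22.6 CPM in males and 4.40 ± 1.94 CPM in females (SD, n = 2 each; log2 3.95 ± 0.72, adjusted p = 0.0102). None of the 9 members had a read at an intronic site.

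Inwardly rectifying channels let potassium in more easily than out. Of 9 members, 3 were tested, and kcnj5, a subunit of channels opened by G proteins in the heart, was higher in females. It had 0 and 0 reads in males and 41 and 63 in females, at least a 19.4-fold difference (adjusted p = 0.0136). Both of its tested sites were higher in females, 1 overlapping an exon and 1 downstream. With no male reads, kcnj5 and both sites passed the filter on low counts through the females, so no other direction was possible. Of 7 tested heart markers, 6 were higher in males. Without female 2 the gene did not pass.

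Channels opened by calcium or sodium inside the cell had 7 members and 2 tested, which went in opposite directions. In kcnma1, the large-conductance channel opened by calcium and voltage, males had 24 and 19 reads and females 1 and 0. Both males were higher, at 16.0 ± 2.43 CPM (SD, n = 2), and the ratio was 76.8 with a counting interval of 13.1 to 3103 (adjusted p = 0.0138). All 43 male reads lay at intronic sites, and the single female read lay at the last, exonic site. Without female 2 the gene did not pass. The sodium-activated channel gene kcnt2 had 0 and 0 reads in males and 20 and 24 in females, at least an 8.21-fold difference (adjusted p = 0.0218). It did not pass without male 1, female 1 or female 2.

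Among CLC genes, 5 of 7 were tested, with clcn2 higher in males and clcn7 higher in females. The lysosomal exchanger gene clcn7 had the most reads of all channel genes, 62 and 43 in males and 489 and 297 in females. Its level was 38.6 ± 2.27 CPM in males and 158 ± 42.3 CPM in females (SD, n = 2 each), so both females exceeded both males (log2 -2.04 ± 0.54, adjusted p = 0.0256). It did not pass without male 1 or without female 1. The cell-surface channel gene clcn2 had 30 and 62 reads in males and 8 and 1 in females. Here male 2 was the highest, in contrast to most genes called in males, and the log2 fold change was 4.34 ± 1.08 (adjusted p = 0.0219). Without male 2 or female 2 clcn2 did not pass. The endosomal exchanger genes clcn3 and clcn5 were read in every frog and did not pass. In clcn5, 50 and 48 reads in males and 111 and 114 in females gave a log2 fold change of -0.31 ± 0.58.

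The remaining families gave no call at the gene level. The pacemaker channel gene hcn2, the only HCN member, had 5 and 5 reads in males and 46 and 27 in females (log2 -1.95 ± 0.87, adjusted p = 0.111). The TRPM family had 5 members and 1 tested, trpm7, a channel fused to a protein kinase that passes magnesium and calcium. It had 52 and 47 reads in males and 176 and 232 in females (log2 -1.17 ± 0.56, adjusted p = 0.133). Both females lay above both males in hcn2 and trpm7. Under 2 of 14 alternatives both genes passed as higher in females. These were library size alone (adjusted p = 0.0436 and 0.0292) and the somatic markers set equal. In these settings 3307 and 7865 of all 10257 tested genes passed as higher in females.

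Of 3 TRPV members, 2 were tested, and trpv2 had 64 and 11 reads in males and 13 and 3 in females (log2 2.92 ± 1.04, adjusted p = 0.0601). Under 3 of 14 alternatives trpv2 passed as higher in males, among them intronic sites left out (log2 3.20, edgeR adjusted p = 0.0484). With the somatic markers set equal its fold change was -0.84. Of the 2 TRPC members none could be tested, and trpc1 had 6 reads, all in male 1. The TRPC4-associated gene trpc4ap had 0 and 3 reads in males and 8 and 30 in females, a ratio of 7.09 in favour of females with a counting interval of 2.25 to 35.9.

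**Figure D2:**
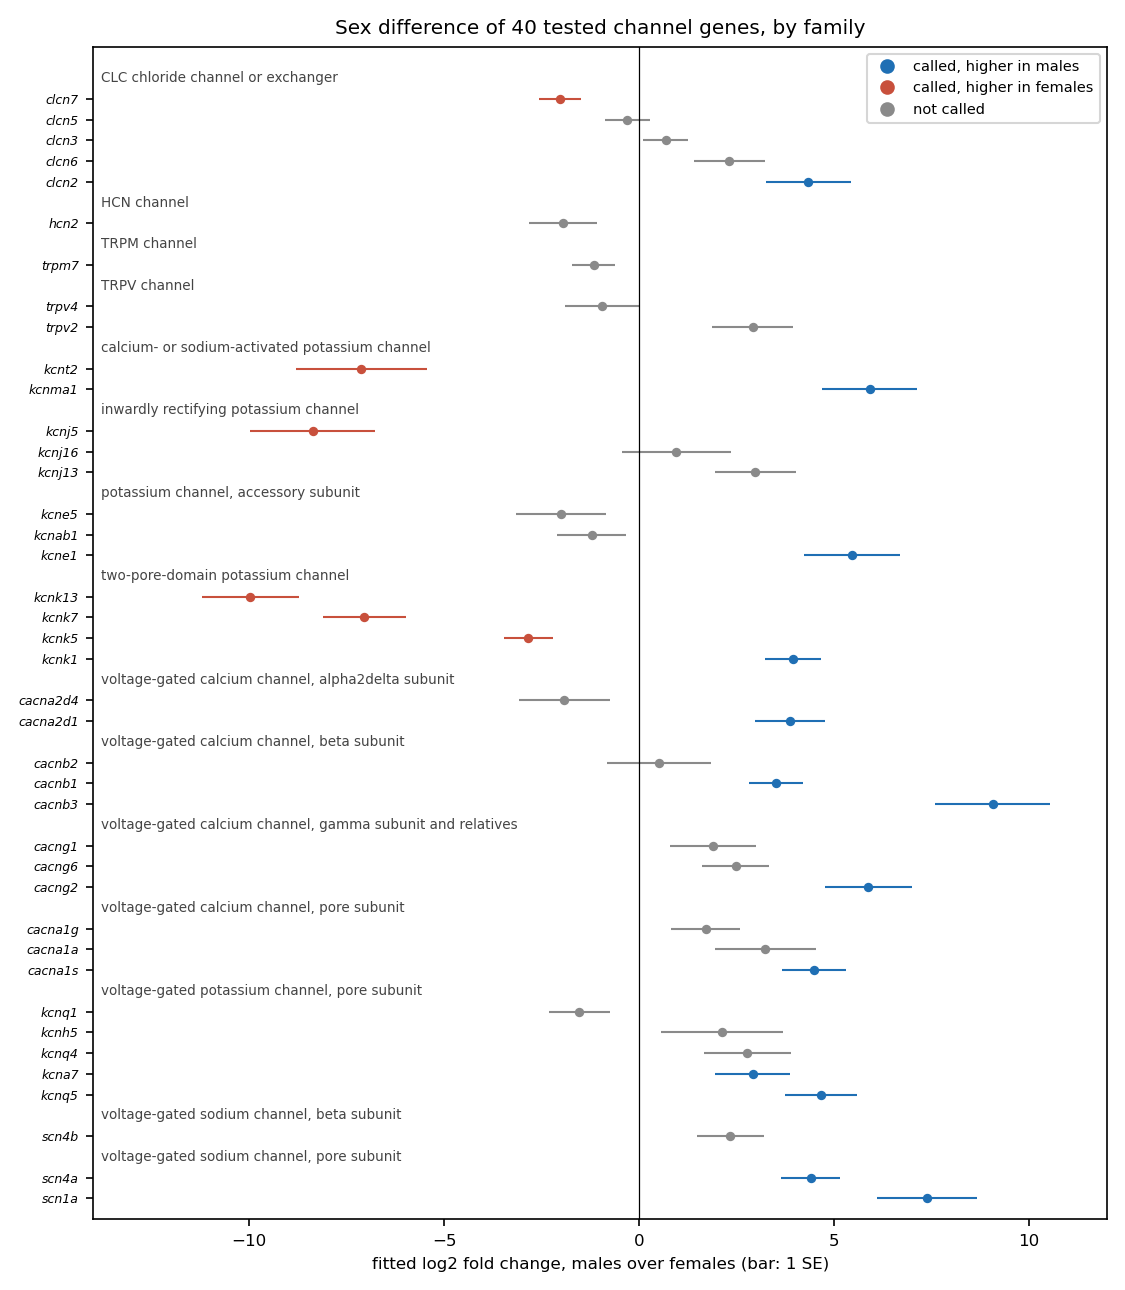
Fitted log2 fold change, males over females, on the horizontal axis for 40 tested channel genes, grouped by family down the page, with bars of 1 SE (blue, passed as higher in males; red, passed as higher in females; grey, did not pass). The sodium channel pore genes scn4a and scn1a lie to the right of 0 and 3 of the 4 tested two-pore-domain potassium (K2P) genes lie to the left; folds of genes with no or few reads in 1 sex depend on the prior count of the fit and show direction only.

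The call depended on single frogs for a part of these genes. The counts that follow hold only the 12 genes of smallest p among those called in males. They leave out kcna7, which lost its call whichever of the 4 frogs was left out. Of the 18 called genes named by rule, 11 kept the call when each library was left out in turn. Without female 1, 4 lost it, without female 2, 6 did, without male 1, 2 did, and without male 2, 1 did, while kcne1 could not be tested without male 1. Without male 2, 60 channel genes passed the filter in place of 42. Their median log2 fold change was 2.69, against -0.56 over all genes tested in that setting. Male 1 had the higher level of the 2 males in 12 of the 14 genes called in males.

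The 53 channel genes with reads that were left untested had between 2 and 261 reads, with a median of 13. Of these, 7 were read in 1 frog only, and 9 had over 90% of their reads in male 1. The largest of them were cacna2d2, with the 246 and 7 reads in males given above, and kcnh7 and kcnh4, voltage-gated potassium channel genes of the ether-a-go-go type. In kcnh7 there were 165 and 0 reads in males and 0 and 0 in females, and in kcnh4 there were 102 and 1 in males and 1 and 0 in females. All reads of kcnh7 lay at 1 intronic site, 66590909 of chromosome 9, and all of kcnh4 at 1 intronic site of a scaffold outside the chromosomes. In these 3 genes the reads of the males came from male 1 almost alone, and the males were not alike.

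Sites within introns took a far larger share of channel reads in males than in females. They held 38.1% of the channel reads of male 1 (exact Clopper-Pearson 95% interval 36.4 to 39.8%) and 25.5% of male 2 (22.8 to 28.3%). In females they held 3.43% (2.79 to 4.18%) and 2.38% (1.76 to 3.14%), and these intervals cover counting error only. The sexes did not overlap, and the mean was 31.8 ± 8.90% in males and 2.90 ± 0.75% in females (SD, n = 2 each), a difference of 28.9 points. The exact two-sided permutation p over the 4 frogs was 0.333, the smallest this design allows. Among all other genes the intronic share was 5.79% and 4.40% in males and 2.68% and 2.11% in females. These shares include intronic reads on the strand opposite to the gene and in genes of unknown strand, which are counted below.

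Sites inside an exon held 39.8% and 46.0% of channel reads in males and 23.7% and 30.7% in females. Sites overlapping an exon held 14.3% and 19.0% in males and 67.8% and 60.0% in females. Among all other genes sites inside an exon held 24.9% and 24.7% in males and 28.9% and 34.5% in females. In those genes sites overlapping an exon held 63.1% and 64.6% in males and 58.3% and 52.4% in females. Both differences thus ran the other way. The channel genes with most female reads were kcnk7, clcn7 and kcne5, with 809, 786 and 431. Over all frogs 100%, 91.9% and 96.0% of their reads lay at a single site overlapping an exon. All female channel reads at such sites came to 3107, so few genes carried much of that share. As levels, intronic reads of channel genes made 438 and 168 of every 1000000 reads of the library in males and 40.3 and 27.0 in females. The other channel reads made 713 and 493 of every 1000000 in males and 1134 and 1109 in females. Scaled by library size alone, intronic channel reads were thus more frequent in males and the remaining channel reads less frequent. On the TMM scale the intronic reads came to 726 and 241 CPM in males and 37.0 and 20.8 CPM in females, while the remaining reads came to 1182 and 705 CPM in males and 1040 and 853 CPM in females, so that for the remaining reads the sexes overlapped.

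**Figure D3:**
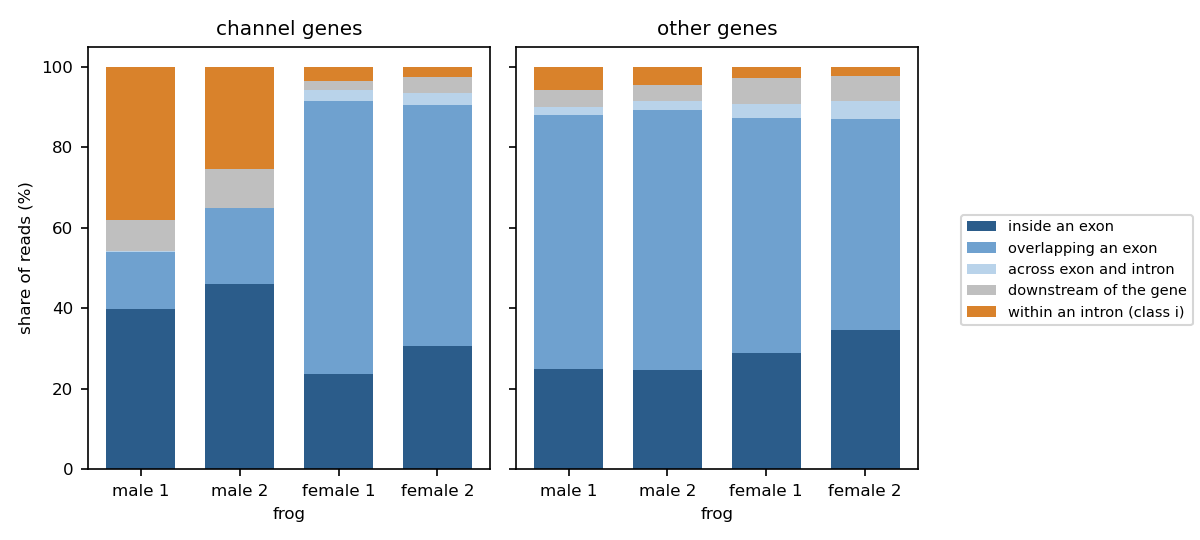
Share of reads in each class of site, in percent, for channel genes (left panel) and all other genes (right panel), with 1 stacked bar per frog, males left of females. The intronic class at the top of each bar takes 38.1% and 25.5% of channel reads in males and 3.43% and 2.38% in females, and between 2.11% and 5.79% of the reads of other genes.

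A few genes carried much of this. The 22 channel genes with over 50% of their reads at intronic sites held 1199 of the 1476 intronic channel reads of the males and 115 of the 144 of the females. The 3 genes cacna2d2, kcnh7 and kcnh4 gave 502 reads, or 41.2% of the intronic channel reads of male 1. Without them the intronic share was 26.6% and 25.6% in males and 3.40% and 2.38% in females. These genes were left out after the data were seen, because their intronic reads lay in male 1, and that choice by itself brings male 1 closer to male 2. Counted as the mean over single genes with at least 50 reads, the share was 38.4% and 23.4% in males and 17.0% and 4.74% in females, a smaller difference of 20.1 points.

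Among channel genes with at least 50 reads, 10 of 37 (27.0%) had over 50% of them in introns, against 627 of 9525 other genes (6.58%). Of these, cacnb3, kcnq5, kcnh7, kcnh4 and kcnip1, which encodes a calcium-binding partner of A-type potassium channels, were read at intronic sites only. The strand of these 5 genes was unknown, because a gene's strand was taken from its other sites. At the other end, clcn7, kcnk7, kcne5 and kcnq1 were the deepest of 18 genes with no intronic read. Over the 77 intronic sites of channel genes, 46 lay on the gene's own strand, 8 on the opposite strand and 23 in genes of unknown strand. Of the 1476 intronic reads of the males, 253 lay on the opposite strand and 634 in genes of unknown strand. In male 1 these were 251 and 558 of 1218 reads, and in both females together 19 and 77 of 144. The share shown to lie on the gene's own strand is therefore smaller than the intronic share. Leaving out the opposite-strand sites, but not those of unknown strand, gave 32.8% and 25.3% in males and 3.05% and 1.99% in females.

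Within single genes the direction was less uniform, on few reads. In the 13 channel genes with at least 10 reads in each sex and any intronic read, the intronic share was higher in males in 8 and in females in 5. In these 5 genes the female intronic reads numbered 10 in cacna1a, 2 in cacna1s, 1 in scn4b and at most 7 in the rest. In each of the 5 they came from 1 female. Over the other genes chosen in the same way it was higher in males in 3134 of 3982 (78.7%). Of the 14 channel genes called in males, 5 had an intronic site as their most read site, cacnb3, kcnq5, kcnma1, cacna2d1 and clcn2, and none of the 6 called in females did. With all intronic reads removed, 34 channel genes could be tested. In that count 14 were higher in males and 7 in females, and 15 of these were calls of the full sums too. Over all 9686 genes tested in that setting, 1596 passed as higher in males and 1745 in females. The 5 genes just named could not be tested then, and kcnj2, cacng6, kcnj13, scn4b and trpv2 were among the genes that passed as higher in males.

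**Figure D4:**
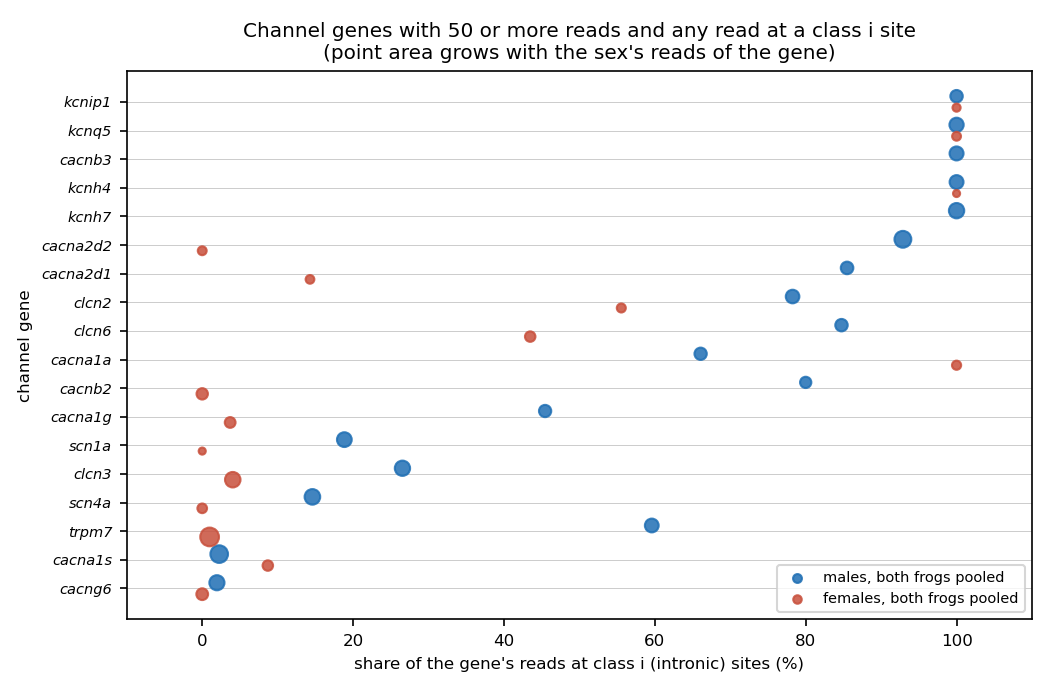
Share of each gene's reads at intronic sites, in percent on the horizontal axis, for single channel genes with 50 or more reads and at least 1 intronic read, with the males (blue) above the females (red) in each row, both frogs of a sex pooled and point area growing with the reads of that sex. In trpm7, cacna2d1 and cacnb2 the males lie far to the right of the females. For cacnb2 all male reads came from male 1, and for cacna2d1 the females had 7 reads. In cacna1a the females lie at 100% on 10 reads.

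Among these genes, trpm7, on chromosome 3, had 8 sites over 61733 bases. Its intronic reads made 75.0% and 42.6% of its reads in males and 2.27% and 0% in females. The test of the intronic against the other reads of a gene passed for trpm7 (edgeR diffSpliceDGE adjusted p = 0.00164) and not for clcn3 (adjusted p = 0.0539), the only 2 channel genes that could be tested this way. In both genes the intronic reads passed the filter on low counts only through the males. They numbered 39 and 20 in males and 4 and 0 in females in trpm7, and 33 and 10 against 0 and 7 in clcn3. A higher share in males was thus favoured by the filter. Over all 1225 genes tested, 57.2% passed. Over the alternatives the adjusted p of trpm7 ran from 0.000267 to 0.0819, and it did not pass without female 2, while without male 2 the test passed in 4 channel genes. In clcn3 the intronic share was 30.6% and 18.5% in males and 0% and 6.80% in females.

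Sites of trpm7 were called in the test of single sites in opposite directions. An intronic site at 94880591 had 29 and 17 reads in males and 4 and 0 in females and was higher in males (log2 4.15 ± 1.27, adjusted p = 0.0388). It took 46.0 ± 13.9% of the gene's reads in males and 1.14 ± 1.61% in females (SD, n = 2 each). A site across an exon and an intron at 94847325 had 1 and 1 reads in males and 77 and 21 in females (log2 -4.72 ± 1.25, adjusted p = 0.0264). The last site, at 94883867, had 10 and 6 reads in males and 59 and 114 in females (log2 -2.79 ± 0.87, adjusted p = 0.0410). Each of these called sites passed the filter on low counts only through the sex in which it was higher. Its direction was thus favoured by the filter. The intronic site lies 3276 bases before the last one.

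The use of sites within a gene was tested in 9 channel genes with at least 2 tested sites, and trpm7 was the only one to pass (adjusted p = 0.0179), against 15.9% of all 3536 genes tested. Its adjusted p ran from 0.000245 to 0.549 over the alternatives, and it did not pass without intronic sites or without male 1, female 1 or female 2. In kcnk13 and kcnj5, which were among the 9, males had no reads, so their site use could not be compared between the sexes.

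The 15 sites of kcnk13 were the most of any channel gene and ran over 5674 bases of chromosome 8, from 65586788 to 65592462. All had 0 reads in both males, and each had between 6 and 48 reads in the females together. The 6 that could be tested passed the filter on low counts through the females. Their direction, higher in females, was therefore fixed beforehand and adds nothing to the gene's own test. With no male reads, the direction of the gene's own test was fixed in the same way. No site held more than 15.0% of the gene's reads. The reads were thus spread over many exonic sites and not gathered at 1 end. Whether priming on A-rich stretches within the RNA gave part of them was not tested.

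In hcn2 the reads of the sexes lay mainly at different sites, on 10 male reads in all, and 1 tested site was too few for the site use test. With other filters on low counts the test could be made, and hcn2 passed at 1 CPM in 2 libraries (adjusted p = 0.0117) and did not pass with no filter (adjusted p = 0.202). Its first site, inside an exon at 86662845 of chromosome 1, had 0 and 1 reads in males and 38 and 22 in females and was called higher in females (log2 -4.88 ± 1.36, adjusted p = 0.0300). The last site, 1732 bases on, had 5 and 4 reads in males and 0 and 1 in females. Most male reads therefore lay at the last site and most female reads at the first. The first site passed the filter on low counts through the females alone, so its called direction was favoured by the filter.

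**Figure D5:**
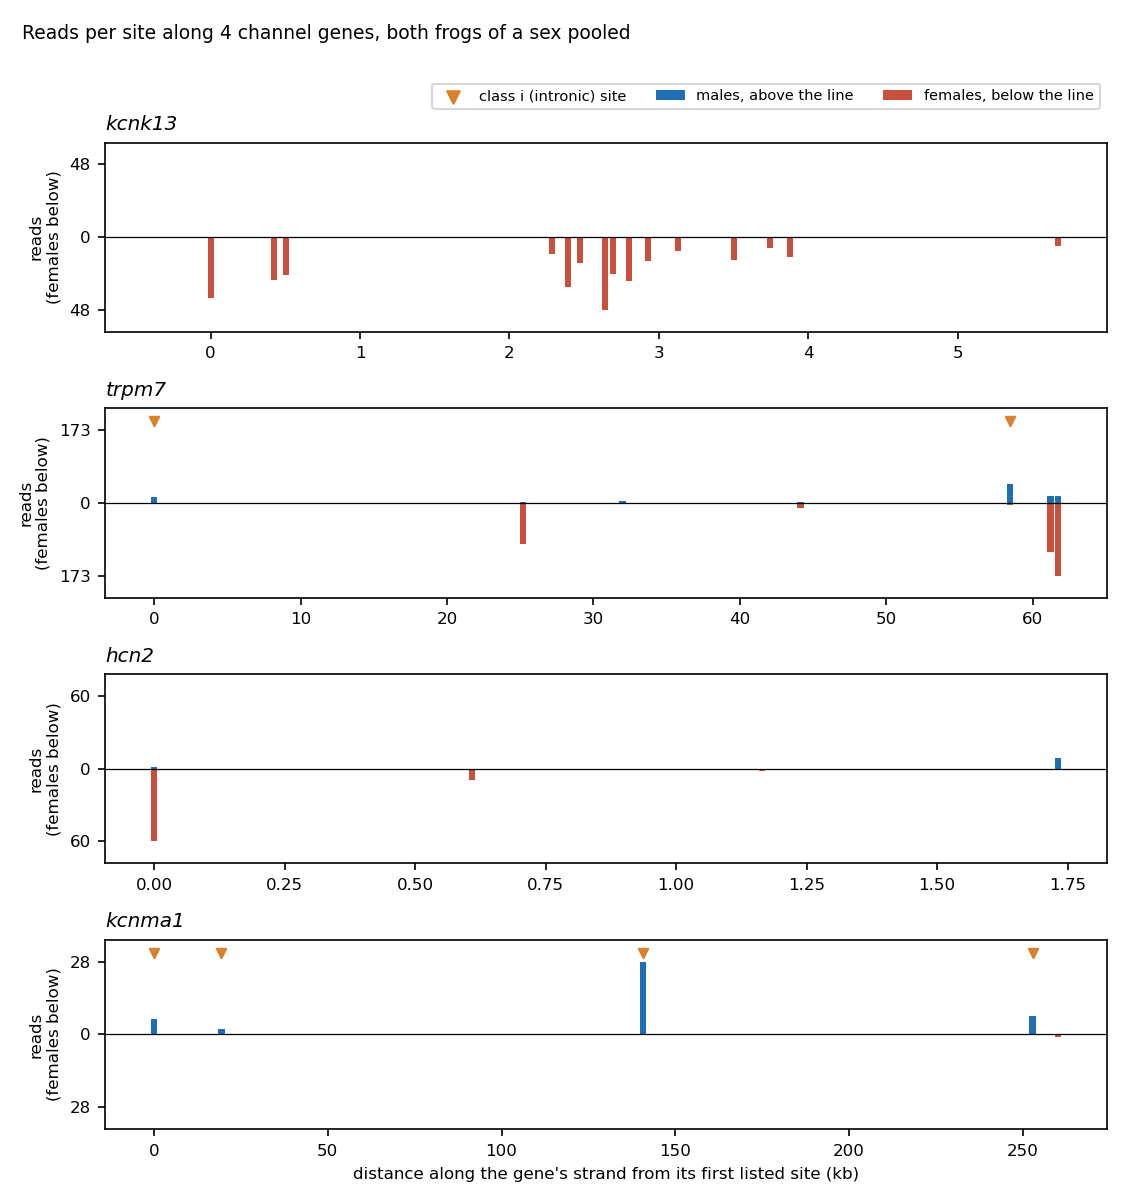
Reads at each site of kcnk13, trpm7, hcn2 and kcnma1, pooled over the 2 frogs of a sex (males upward in blue, females downward in red), against the distance in kb from the gene's first listed site along its strand, with orange triangles over intronic sites. All 15 sites of kcnk13 are read in females alone, trpm7 and hcn2 are read mainly at different sites in males and in females, and kcnma1 has a single female read.

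Over single sites, 51 of the 251 sites of channel genes could be tested. Of these, 14 were higher in males and 16 in females, against 16.2% and 19.9% of all 17215 tested sites. By class, 5 of the 6 tested intronic sites were higher in males, 1 each in cacnb3, kcnq5, kcnma1, clcn2 and trpm7, and none in females, where 58.2% of all 1363 tested intronic sites were higher in males and 8.8% in females. The 5 sites had between 0 and 6 reads over both females and so passed the filter on low counts through the males. Of 26 tested sites inside exons, 5 were higher in males and 8 in females, against 13.8% and 19.7% of all such sites. Of 15 overlapping an exon, 2 were higher in males and 6 in females, against 6.75% and 24.7%. The authors' deposited table gave an FDR-adjusted p under 0.05 at 22 channel sites, 10 higher in males and 12 in females, and 19 of the 22 were called here in the same direction and none in the opposite one. The counts of 14 and 16 sites rested on single frogs: they were 6 and 3 without female 2, 10 and 1 without female 1, 8 and 5 without male 1, and 20 and 8 without male 2.

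Proteins that work with channels were listed apart from the channels themselves. Of 36 channel partner genes in the table, 23 were tested and 11 were higher in males and none in females, against 16.8% and 19.1% of all tested genes. The smallest adjusted p belonged to jph2, which ties the surface membrane to the calcium store of muscle, with 318 and 226 CPM in males and 22.0 and 14.3 CPM in females (adjusted p = 0.00799), followed by fgf13, a partner of sodium channels, with 32.8 and 14.9 CPM in males and 0.39 and 0.43 CPM in females. The calcium sensor gene stim2 had 112 and 45.8 CPM in males and 11.6 and 7.35 CPM in females. The synaptic gene lgi1 had 15.5 and 9.34 CPM in males and 0.77 and 0 CPM in females.

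Of 41 genes of other channel families in the table, 23 were tested, with 7 higher in males and 3 in females, against the same 16.8% and 19.1%. Of the 7, ryr1 was also counted among the skeletal muscle markers above. The calcium release channel genes ryr3 and ryr1 had 651 and 435 CPM and 544 and 399 CPM in males, against 20.8 and 19.9 CPM and 21.6 and 26.8 CPM in females (adjusted p = 0.00696 and 0.00726). The touch channel gene piezo2 had 105 and 67.2 CPM in males and 3.85 and 2.60 CPM in females, and ano4, of the anoctamin family, had 34.6 and 13.1 CPM in males and 0 and 0.43 CPM in females. Those higher in females were named after their values were seen: mcoln2, with no male reads, p2rx4, an ATP-gated channel, and itpr1, the calcium release channel opened by inositol trisphosphate. Itpr1 had 0.60 and 9.34 CPM in males and 48.1 and 48.9 CPM in females (adjusted p = 0.0378). Members of both lists that did not pass numbered 12 of 23 and 13 of 23.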

How the data were processed

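Whole-body RNA of 2 adult male and 2 adult female frogs was read at polyadenylation sites. Raw counts of reads at each site, with its position, gene and class code, were deposited in 1 table, per the file headers. Bowtie2 2.2.3 appears in the submitters' processing notes. How sites were called and filtered, the genome build and the base from which positions count are not given in the sources. The same table holds p-values and a signed fold change from the authors' own test, per the file headers; their tool is not named, and set against the counts a positive fold means more reads in females. Class codes were read as in Cuffcompare (inside an exon, overlapping an exon, across exon and intron, downstream, within an intron, opposite strand), a scheme the file does not name. Chromosome numbers come from symbols in a RefSeq table (assembly UCB_Xtro_10.0), in which all 97 channel symbols were found; a few channel genes lie on scaffolds outside the chromosomes.

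Counts were summed per gene over sites of every class except opposite-strand ones and tested with edgeR 4.0.16 in R 4.3.3: filterByExpr, TMM, glmQLFit and glmQLFTest on sex over all genes or all sites, diffSpliceDGE for site use and intronic share, Benjamini-Hochberg at 0.05. DESeq2 1.42.0 was an alternative. The SE was obtained as |log2 fold change| over the root of F. Scripts were tested on simulated data. Depth was 1531471 to 2779715 reads per library. Where a sex had 0 reads, folds are lower bounds against 3 reads over that sex; with 1 to 3 reads, ratios carry 95% Clopper-Pearson counting intervals. No molecular identifiers are described, so intervals and floors cover counting error only, and p-values measure the spread between 2 frogs per sex. Libraries of a sex differed by more than sampling noise. Same-numbered frogs share only a number.

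The channel genes and all lists were chosen with earlier results of these data known. Genes named are cacnb3; per family the member with most reads; all genes higher in females; the 12 of smallest p higher in males; genes passing the use or intronic share test; the 4 highest and 4 lowest in intronic share at 50 or more reads, ties broken by reads; and up to 4 per partner list. Results of 2 channel genes are not reported here, although the counts of genes and sites hold them. Other genes are described as neighbours, family members or by the count they belong to. Reads of near-identical gene copies are uncertain.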

Additional observations from a re-analysis of the deposited data

Results flagged for a closer look

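The voltage-gated potassium channel gene kcnc1 was read on the strand opposite to its exon alone, in sites that no sum above contains. The site at position 148460 of an unplaced scaffold had 103 reads over all 4 frogs, 45 and 23 in males and 19 and 16 in females. A second site at 151430 had 7 reads, 0 and 2 in males and 5 and 0 in females. Both lie above the 3 reads that a count of 0 allows. With the opposite-strand exonic sites of all genes kept, 44 channel genes could be tested, and 15 were higher in males and 6 in females. Keeping them also changes the library sizes, the filter and the scaling. Over all 10395 genes tested in that setting, 1709 passed as higher in males and 1950 in females. Groups of 2 frogs are too small for a test of outlying frogs.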

How the results depend on the processing

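The counts of 14 genes higher in males and 6 in females were within 1.5 times under RLE size factors, DESeq2, both other filters, library size alone, opposite-strand exonic sites kept, intronic sites left out wholly or on the opposite strand, and the replicate block (17 and 7; 2 pairs only, correlation of same-numbered frogs 0.30). With the somatic markers set equal they were 2 and 15 genes, and 3 and 28 sites against 14 and 16. Leaving out 1 library gave 11 to 24 genes in males and 4 to 7 in females, and 6 to 20 and 1 to 8 sites. At 1 CPM in 2 libraries the sites were 28 and 29. Site use passed in 3 genes with no filter, 4 at 1 CPM, 0 without intronic sites and 0 to 3 without 1 library, against 1. The intronic share test passed in 5 genes with no filter and 0 to 4 without 1 library, against 1. The difference in intronic share was 20.1 points over single genes and 22.6 to 35.1 without 1 library, against 28.9. Of the genes named by rule, the fold change reversed in cacnb1 (-0.24), cacng6 (-1.30) and trpv2 (-0.84) with the somatic markers set equal and in kcne5 (1.01 without female 1, down to -3.19 without another frog). Of the other genes given above, it also reversed with the somatic markers set equal in kcna7 (-0.82), cacna1a (-0.51), cacna1g (-2.06), cacnb2 (-3.26), clcn3 (-3.09, adjusted p = 0.00266 in edgeR), kcnj13 (-0.74) and scn4b (-1.40), under library size alone in cacnb2 (-0.50) and clcn3 (-0.27), and in cacnb2 with the replicate block (-0.40), without intronic sites (-1.42) and without male 1 (-6.94). The cause was not tested. Depth limits the channel genes: 53 of 95 were not tested.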
